A study of Mus musculus with 20 samples.

Results

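The vomeronasal receptors are G protein-coupled receptors with which sensory neurons of the vomeronasal organ, a chemosensory organ of the nose, detect pheromones and other social odours. Members were all genes whose symbol begins with Vmn1r or Vmn2r followed by a number, and 320 of the 25965 gene windows of the chromatin table met this rule, 201 of type 1 (V1R) and 119 of type 2 (V2R). The RNA table held 317 of them among 25067 genes. Vmn2r57, Vmn2r88 and Vmn2r89 had a window and no RNA row. The rule used gene symbols and no measured value, though it was chosen with earlier results of these data known.

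The cells were mouse germline stem cells (GSCs), cultured counterparts of the stem cells that sustain sperm production, kept on fibroblast feeder cells. The study asked what the loss of Kmt2b, a methyltransferase for lysine 4 of histone H3, does in these cells. Control cells carried Kmt2b F/F (floxed alleles) with Rosa26-CreERT2, a Cre recombinase switched on by 4-hydroxytamoxifen (4-OHT), and received ethanol. Knockout cells, labelled Kmt2b FC/FC, received 4-OHT at 1 μM, and both were harvested on day 6. The Cre is expressed from the Rosa26 locus and is not restricted to germ cells. 4-OHT exposure and the deletion went together and cannot be told apart. H3K4me3 (trimethylated lysine 4, a mark of active and poised promoters), H3K27me3 (the Polycomb mark), input DNA (chromatin without an antibody) and RNA each had 2 control and 2 knockout libraries. H3K9me3 (trimethylated lysine 9, a mark of heterochromatin) had 2 libraries and 2 inputs of its own, all labelled as the F/F genotype and made with another library kit. How the cells behind these 4 libraries were treated is not given. The design text speaks of duplicate cell lines without tying a line to a library, so p-values measure the spread between these libraries.

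V1Rs are short proteins whose coding sequence lies in 1 exon, and they signal through Gnai2. V2Rs have a long extracellular domain encoded over several exons and signal through Gnao1. Both kinds end at the cation channel Trpc2. Each sensory neuron is known to express very few receptor genes, and the genes sit in large tandem clusters made by repeated duplication, so that neighbours are often near-identical. They are mostly silent in other tissues, and in olfactory tissue H3K9me3 is known to cover receptor genes that are not in use.

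The receptors fell into 26 groups when neighbouring starts at most 1 Mb apart were joined. Of these groups, 16 held at least 4 receptors and 307 receptors in all, and 7 held 1 receptor. Chromosome 7 carried 151 receptors (47.2%). Its largest cluster ran from Vmn1r91 to Vmn1r183 (mm10 chromosome 7, 20101158 to 24055691) and held 62 V1Rs. The next ran from Vmn2r29 to Vmn1r89 (7231327 to 13220289) with 24 V1Rs and 28 V2Rs.

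RefSeq sequences around the start of transcription (build GRCm38.p6, 300 bases, 250 before and 50 after the start) matched 288 receptors by symbol and 268 of them within 100 bases of the start in the deposited tables. The sequences below belong to the 2 windows with the highest log2 ratio of H3K9me3 to input when 0.5 RPM is added to each (Vmn2r74 and Vmn1r215), to the V2R with the lowest such ratio (Vmn2r107), to another V2R below input (Vmn2r1) and to a receptor with no read in any chromatin library (Vmn1r111). Capitals mark each CG dinucleotide, the site of DNA methylation.
Vmn2r74 (chr7:85961433-85961732, minus strand): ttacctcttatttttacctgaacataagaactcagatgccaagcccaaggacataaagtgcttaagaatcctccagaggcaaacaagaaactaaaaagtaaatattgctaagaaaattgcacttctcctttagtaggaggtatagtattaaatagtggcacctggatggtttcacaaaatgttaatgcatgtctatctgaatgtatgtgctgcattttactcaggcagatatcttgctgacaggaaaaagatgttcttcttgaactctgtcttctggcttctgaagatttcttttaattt
Vmn1r215 (chr13:23075542-23075841, plus strand): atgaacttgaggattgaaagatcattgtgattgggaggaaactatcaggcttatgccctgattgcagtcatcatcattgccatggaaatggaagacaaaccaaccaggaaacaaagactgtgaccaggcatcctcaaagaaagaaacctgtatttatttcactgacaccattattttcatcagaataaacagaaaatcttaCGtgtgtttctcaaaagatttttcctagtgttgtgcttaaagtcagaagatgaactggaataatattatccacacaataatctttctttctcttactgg
Vmn2r1 (chr3:64081392-64081691, plus strand): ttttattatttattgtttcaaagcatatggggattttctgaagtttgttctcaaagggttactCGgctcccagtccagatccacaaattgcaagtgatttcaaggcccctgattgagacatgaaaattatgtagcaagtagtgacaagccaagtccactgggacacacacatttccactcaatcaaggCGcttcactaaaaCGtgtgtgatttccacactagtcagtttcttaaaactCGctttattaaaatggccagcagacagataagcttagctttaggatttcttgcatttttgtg
Vmn2r107 (chr17:20345175-20345474, plus strand): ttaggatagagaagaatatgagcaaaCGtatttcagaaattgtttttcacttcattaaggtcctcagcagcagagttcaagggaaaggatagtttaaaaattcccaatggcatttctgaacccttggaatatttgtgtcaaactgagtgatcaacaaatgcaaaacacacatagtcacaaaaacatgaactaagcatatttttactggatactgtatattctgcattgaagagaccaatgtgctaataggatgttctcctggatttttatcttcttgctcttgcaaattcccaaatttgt
Vmn1r111 (chr7:20703167-20703466, minus strand): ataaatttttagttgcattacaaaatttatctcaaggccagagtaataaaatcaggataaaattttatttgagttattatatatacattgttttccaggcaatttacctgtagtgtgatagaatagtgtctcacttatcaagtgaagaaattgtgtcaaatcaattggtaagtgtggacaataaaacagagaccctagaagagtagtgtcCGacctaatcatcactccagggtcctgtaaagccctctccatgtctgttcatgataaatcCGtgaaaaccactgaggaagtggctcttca

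These starts were rich in A and T. The median receptor held 1 CG in its 300 bases, against 14 over 12878 genes matched in the same way, 1 over 865 olfactory receptors and 15 over 224 Zfp (zinc finger) genes. At most 5 CG were found in 99.25% of receptors and in 32.0% of all genes. The median share of G and C was 36.7% in receptors and 56.7% in all genes. The letters TATAAA, searched on both strands with no other motif, occurred in 37.3% of receptors (45.5% of V1Rs, 23.8% of V2Rs) and in 13.6% of all genes. Among the printed windows, Vmn2r74 had no CG and Vmn2r1 had 4. CG and the share of G and C were weakly related to the H3K9me3 described below. Across 236 receptors with reads, the correlation of the H3K9me3 ratio with the number of CG was 0.094 and with the share of G and C was -0.042, as a description over genes that share libraries and cluster.

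Sequence likeness between receptors did go with the absence of reads. The Vmn1r111 window is the same, base for base, in the RefSeq entries of Vmn1r118, Vmn1r131, Vmn1r138, Vmn1r166 and Vmn1r257, the largest of 25 groups of receptors with identical windows. Of 62 receptors in these groups, 39 were in the chromatin table and 25 of those had no read in any of its 16 libraries. Over the whole family 39 receptors (12.2%) had no read in any library, against 2.55% of all windows and 4 of 1110 olfactory receptor windows. Of the 32 among them with a matched start, 24 (75%) shared every stretch of 50 bases with another receptor, against 12 of 236 (5.08%) of the receptors with reads. The Vmn1r91 to Vmn1r183 cluster held 25 of the 39 and the Vmn2r29 to Vmn1r89 cluster 9. How the submitters treated reads that map to several places is not given in the sources used here, so a receptor listed with no read is unmeasured here.

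The libraries differed in depth. H3K4me3 had the widest range, with 3830045 to 18035120 mapped reads, and H3K27me3 had 10538531 to 14810131. The inputs that go with both had 10967790 to 14405260 reads. H3K9me3 and its own inputs were deeper, at 41099193 to 63537155 reads, and RNA had 38458004 to 45771855. The receptor windows together held 306 to 1310 reads per H3K4me3 library, 1085 to 1657 per H3K27me3 library, 7085 and 11236 reads in the H3K9me3 libraries and 4142 and 3139 in their inputs. A median receptor had 12 and 24.5 H3K9me3 reads, and 0 to 2 H3K4me3 reads, so that single receptors were measurable mainly in H3K9me3. RNA of Kmt2b, listed under its older name Wbp7, was 142 and 150 RPM in control (reads divided by all mapped reads of the library, then scaled) and 131 and 185 RPM in knockout, and the labels do not say which part of the gene is deleted, so this whole-gene count does not check the labels. All 12 germ cell markers were above 1 RPM in control, with Ddx4 at 409 ± 12.5 RPM (SD, n = 2) and Dazl at 762 ± 34.9 RPM (SD, n = 2). Fibroblast feeder markers were also present, 11 of 12 above 1 RPM.

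H3K9me3 was higher than input over most receptor clusters in control cells. The 320 windows summed to 172 and 222 RPM in the H3K9me3 libraries and to 65.2 and 74.2 RPM in their inputs. Both H3K9me3 libraries lay above both inputs. The means were 197 ± 34.9 and 69.7 ± 6.40 RPM (SD, n = 2 each). The ratio, taken from the means of the log2 sums, was 2.81-fold. The exact two-sided permutation test gave p = 0.33, the smallest that 2 against 2 libraries allow. Over all 25965 windows the same ratio was 0.427-fold, and it was 1.87-fold over 1110 olfactory receptors and 0.352-fold over 368 Zfp windows. Receptor windows held 3.84% and 5.02% of all H3K9me3 reads that fell in any window, against 0.640% and 0.695% of input reads. Both kinds shared the excess, with 2.84-fold for V1Rs and 2.76-fold for V2Rs.

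**Figure D1:**
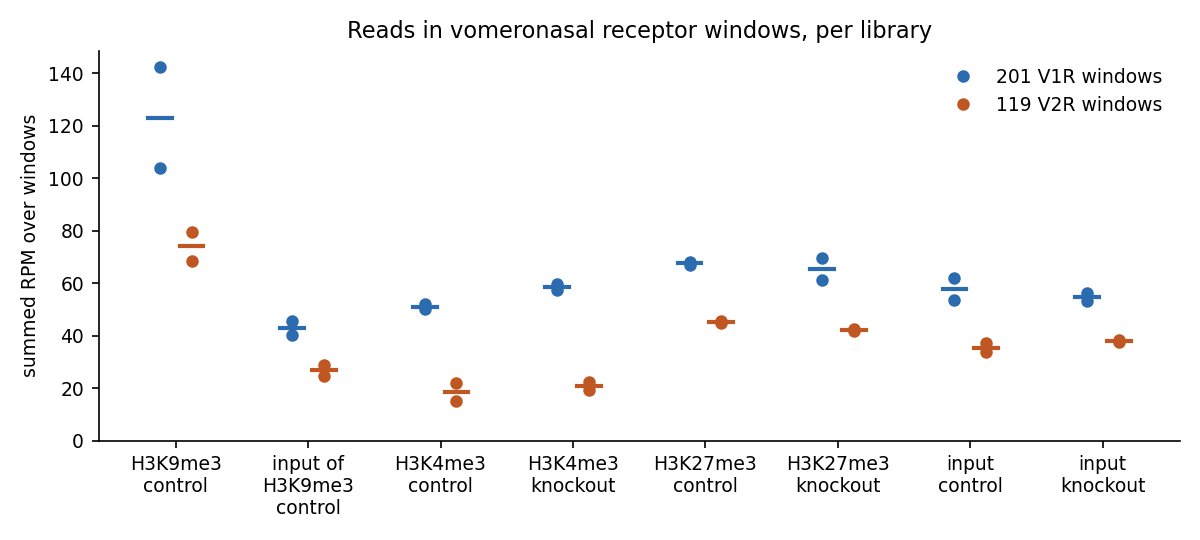
Summed RPM (y axis, from 0) over the 201 V1R and 119 V2R windows in each of the 16 chromatin libraries, 2 per group on the x axis. Points are libraries and horizontal bars are means, and the H3K9me3 libraries stand above their inputs for both kinds while H3K4me3, H3K27me3 and input differ little between control and knockout.

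Window by window, limma (a moderated linear model on log2 RPM, fitted over all windows that averaged 0.2 RPM or more, two-sided, Benjamini-Hochberg adjustment) called 140 of 222 receptors higher in H3K9me3 than in input at an adjusted p under 0.05, or 63.1%, against 6.09% of all 21553 windows tested. It called 5 receptors lower, against 82.5% of all windows. The lower count was unstable, at 3 and 2 without the first or second input, 13 and 18 without the first or second H3K9me3 library, 13 of 320 with no filter and 15 with limma's voom on whole reads. The median log2 difference was 1.54 for receptors and -2.58 for all windows, so that the typical window lay well below input on the scale of mapped reads and directions depend on that scale. After centring each library on its median, 169 receptors were called higher and 0 lower (limma; 0 lower also at an unadjusted p under 0.05), and over all windows the calls went from 1312 higher and 17774 lower to 2490 higher and 700 lower. The filter favoured receptors that H3K9me3 itself lifted over the minimum, since 40 of the 222 had under 0.2 RPM in input and 35 of these were called. With no filter, 159 of 320 receptors (49.7%) were called higher, against 5.75% of all windows. With the filter set on the 2 inputs alone, an alternative chosen after seeing the data, the figures were 106 of 195 (54.4%) and 4.36%. Both H3K9me3 libraries exceeded both inputs in 179 of 320 receptors (55.9%), against 7.39% of all windows. V1Rs were called higher in 92 of 135 tested and V2Rs in 48 of 87, a difference between the kinds that was not tested.

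The ratio of H3K9me3 to input, as log2 with 0.5 RPM added to each value, had a median of 0.56 over 175 V1Rs with a read, 0.38 over 106 V2Rs, 0.12 over 1106 olfactory receptors, -0.67 over 364 Zfp windows and -0.66 over all 25303 windows with a read. A ratio above 1 was reached by 75 of 281 receptors (26.7%) and by 2.64% of all windows. The 2 H3K9me3 libraries correlated at 0.80 across these 281 receptors. The second was higher in 187 of them, by a median of 0.12 on the log2 scale, and 8 receptors differed by at least 1 on the log2 scale, each higher in the second library.

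**Figure D2:**
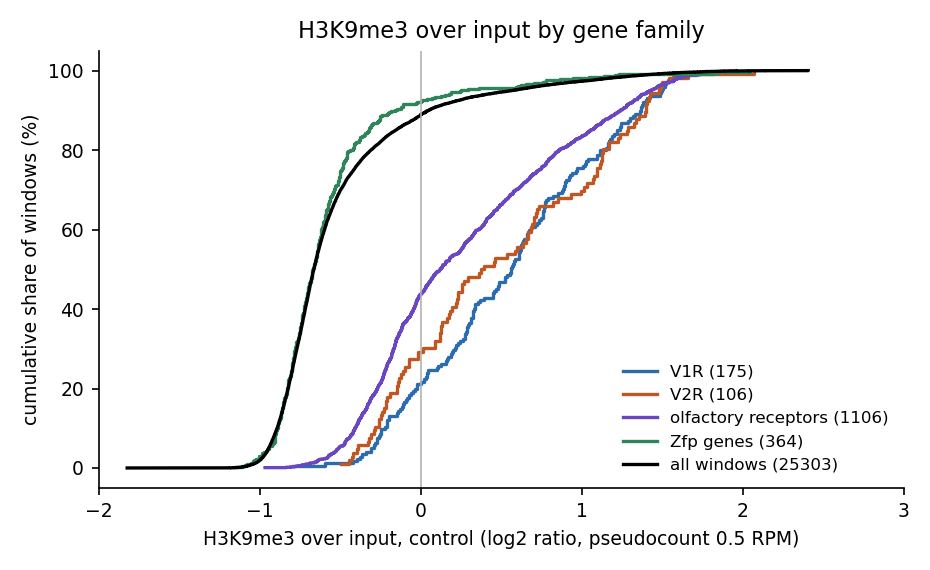
Cumulative share of windows (y axis, %) against the log2 ratio of H3K9me3 to input in control (x axis, 0.5 RPM added) for V1Rs, V2Rs, olfactory receptors, Zfp genes and all windows with a read in any chromatin library. Both receptor curves lie to the right, with medians of 0.56 and 0.38 against -0.66 for all windows.

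The receptor with the highest ratio on this scale was Vmn2r74, a V2R on the minus strand of chromosome 7 (85951867 to 85961482). It had 164 and 174 reads in the H3K9me3 libraries (3.99 and 3.43 RPM) and 20 and 31 in the inputs (0.315 and 0.733 RPM), with no overlap. The log2 difference was 2.95 with a standard error (SE) of 0.44 and a limma adjusted p of 0.00134. Vmn1r215 followed, a V1R on chromosome 13 (23075743 to 23076790), with 100 and 118 against 24 and 13 reads and a log2 difference of 2.80 (SE 0.31, limma adjusted p = 0.000549). Vmn1r81, Vmn2r11, Vmn1r74, Vmn1r73, Vmn2r17 and Vmn1r65 completed the 8 highest ratios, with log2 differences of 2.50 to 3.10, and each was called. None of these 8 had a mean of 1 RPM of RNA, and 6 had no RNA read in any library. Over all 317 receptors in the RNA data, 6 averaged 1 RPM or more and 61.2% had no RNA read. Vmn2r11 had 2, 3, 0 and 1 RNA reads and Vmn2r17 4, 5, 4 and 4. The log2 differences of Vmn1r125 (4.04), Vmn1r60 (3.83) and Vmn1r124 (3.49) were larger still and rested on 1 to 3 reads in each input. Vmn1r125 had 21 and 20 H3K9me3 reads against 2 and 1.

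At the other end stood Vmn1r4, Vmn1r21, Vmn2r107 and Vmn2r57. Vmn2r107 had 8 and 5 H3K9me3 reads against 25 and 18 in input, the H3K9me3 libraries both below the inputs. Its log2 difference was -1.56 (SE 0.48, limma adjusted p = 0.014). Vmn2r57 had 9 and 2 reads against 23 and 14 and differed by -1.90 (SE 0.78, limma adjusted p = 0.0462). The call of Vmn2r57 was lost without the second H3K9me3 library (-0.66, limma adjusted p = 0.0872), while without the first the difference was -3.13. Leaving out either input ended both calls, with limma adjusted p of 0.0666 and 0.0871 for Vmn2r107 and 0.116 and 0.0839 for Vmn2r57. Median centring turned both, to 0.76 for Vmn2r107 and 0.42 for Vmn2r57. Vmn1r21 had 1 and 3 reads against 24 and 11 and fell under the filter. Vmn1r4, described below with H3K4me3, Vmn2r118 and Vmn2r83 were the other receptors called lower.

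The mark differed between clusters. Vmn2r8 to Vmn2r17 on chromosome 5, all V2Rs, summed to 15.6 and 13.4 RPM of H3K9me3 and 3.15 and 3.22 RPM of input. The 2 libraries stood 4.90-fold and 4.21-fold over input, and 8 of 9 tested receptors were called higher. In that cluster the first receptors along the chromosome stood apart, and the lowest log2 ratio was -0.21 against a median of 1.38. Vmn1r55 to Vmn1r65 on chromosome 7 stood 4.08-fold and 5.10-fold over input, with 8 of 11 called. The Vmn1r91 to Vmn1r183 cluster stood 3.44-fold and 4.46-fold over input, with 17 of 20 tested receptors called, although 25 of its 62 receptors had no read. The Vmn2r29 to Vmn1r89 cluster stood 3.22-fold and 4.73-fold over input with 26 of 32 called. Intermediate values were found for Vmn1r4 to Vmn1r31 on chromosome 6 (2.30-fold and 3.14-fold), Vmn1r188 to Vmn1r223 on chromosome 13 (1.82-fold and 2.57-fold) and Vmn2r90 to Vmn1r237 on chromosome 17 (1.58-fold and 2.37-fold). Single receptors away from clusters went both ways. Vmn2r121 on chromosome X had 41 and 60 reads against 13 and 6 in input. Vmn2r118 on chromosome 17 had 8 and 9 against 24 and 18. The pair Vmn1r2 and Vmn1r3 on chromosome 4 had 0 and 2 together, against 7 and 5.

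Among the 16 clusters of at least 4 receptors, one had less H3K9me3 than input in both libraries. Vmn2r1 to Vmn2r7 (chromosome 3, 64081642 to 64844765) belong to the divergent family-C V2Rs, which are known to be expressed broadly and together with other V2Rs in vomeronasal neurons. Their 7 windows summed to 1.12 and 1.28 RPM of H3K9me3 and to 1.84 and 2.01 RPM of input, 0.581-fold and 0.666-fold, with both H3K9me3 libraries below both inputs. Over all windows the 2 libraries stood lower still, at 0.430-fold and 0.423-fold of input. The median log2 ratio was -0.22 in this cluster and -0.66 over all windows. The cluster was thus low beside other receptors and not beside windows at large. Limma called 0 of 5 tested receptors higher (0 at an unadjusted p under 0.05) and 0 lower (2 unadjusted), and the log2 ratios ran from -0.33 to 0.01. Most of these windows are not known to lie at receptor starts. The deposited starts of Vmn2r2, Vmn2r4, Vmn2r6 and Vmn2r7 lay 3063, 5239, 5480 and 125163 bases from those in RefSeq, and Vmn2r5 was not matched. At the 2 matched starts, Vmn2r1, printed above, had 9 and 9 reads against 22 and 17, and Vmn2r3 had 11 and 21 against 26 and 23. This cluster had 117 and 85 input reads over 7 receptors. Depth per receptor varied between clusters, with 200 and 136 input reads over 10 receptors in Vmn2r8 to Vmn2r17. The Vmn1r91 to Vmn1r183 cluster had 246 and 183 over 62. The part of depth was not tested. The weakest of the other clusters of at least 4 were Vmn1r32 to Vmn1r39 on chromosome 6 (1.23-fold and 1.37-fold) and Vmn2r84 to Vmn2r87 on chromosome 10 (1.68 and 1.14 RPM of H3K9me3 against 1.04 and 1.04 RPM of input). The difference between clusters was not tested, since they were set side by side after their values were seen.

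**Figure D3:**
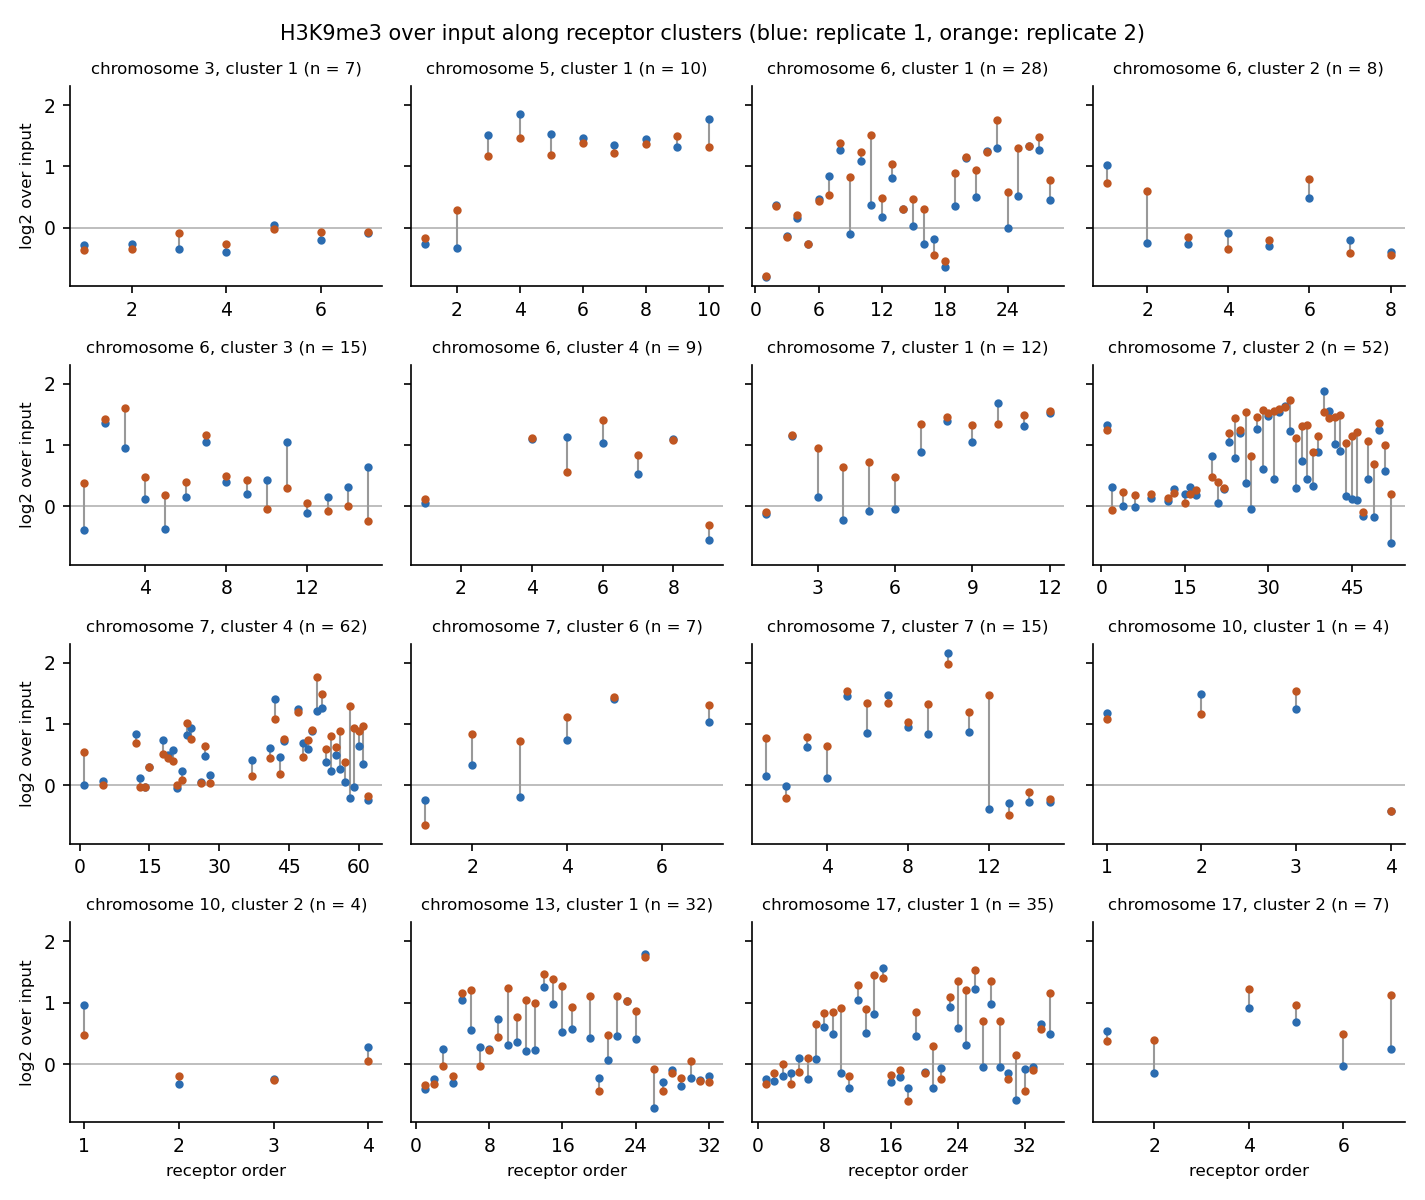
Log2 ratio of H3K9me3 to input (y axis, 0.5 RPM added) for each receptor with a read, in order along the chromosome (x axis), in the 16 clusters of at least 4 receptors. Blue and orange points are the first and second H3K9me3 library over the mean of the inputs, grey lines join them, gaps are receptors with no read, and runs of neighbours lie together above or below 0, as in the cluster on chromosome 3 whose mean ratios run from -0.33 to 0.01.

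Within clusters, the mark came in runs of neighbouring receptors. Across 252 pairs of neighbours the log2 ratios correlated at 0.507, a description, since neighbours also share sequence and libraries. On chromosome 10, Vmn2r80, Vmn2r81 and Vmn2r82 had ratios of 1.13 to 1.39. Vmn2r80, for one, had 59 and 66 H3K9me3 reads against 21 and 16. Vmn2r83 followed at the next position with 7 and 9 reads against 27 and 16, a log2 difference of -1.20 (SE 0.40, limma adjusted p = 0.0185). On chromosome 13, the 7 receptors from Vmn1r216 to Vmn1r223 lay between -0.40 and -0.08, next to Vmn1r215 at 1.77. On chromosome 7, Vmn2r69 to Vmn2r75 ran from 0.99 to 2.07 and Vmn2r77 to Vmn2r79 from -0.39 to -0.19. Vmn2r76, between these runs, had 7 reads in one H3K9me3 library and 98 in the other, against 20 and 19 in input, and was not called (log2 difference 0.61, SE 0.93, limma adjusted p = 0.543). On chromosome 17, the 6 receptors from Vmn2r90 to Vmn2r95 ran from -0.28 to -0.02. These runs were picked after their values were seen and carry no test.

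Taken over all 16 clusters together, the first and last receptors had less of the mark than those between them. Of the 32 first and last receptors of the 16 clusters, 15 (46.9%) had a log2 ratio under 0 and the median was 0.05. Of the 236 receptors with reads between them, 48 (20.3%) were under 0 and the median was 0.59. Each cluster gives a first and a last receptor whatever its size, so small clusters count for more among the ends. The weakest clusters, Vmn2r1 to Vmn2r7, Vmn1r32 to Vmn1r39 and Vmn2r84 to Vmn2r87, held 7, 8 and 4 receptors. Position was not separated from cluster. Windows inside the clusters with symbols outside the rule were lower than the receptors, though higher than windows at large. The 16 clusters enclosed 141 such windows, and not all are genes of other kinds. They include 5 Vmn2r pseudogenes and V1ra8, V1rd19 and V1rh19, whose symbols mark them as V1Rs. Of these, V1rd19 was called higher (log2 difference 1.47, limma adjusted p = 0.0144). Rows with Gm symbols were not classified. The 106 with reads had a median log2 ratio of -0.21, and 16 of 85 tested (18.8%) were called higher. Over all windows the median was -0.66 and 6.09% were called higher. Enclosed windows carrying H3K4me3 (log2 ratio to input of at least 1.5) were called higher in 0 of 36 by limma (0 unadjusted). Those without it were called higher in 16 of 49 (32.7%). Zfp windows within clusters were called higher in 0 of 11 (0 unadjusted) and lower in 11. Of all 299 Zfp windows tested, 16 were called higher and 263 lower, and of all windows 82.5% were called lower. Receptors of the same clusters were called higher in 136 of 214 (63.6%). These comparisons were chosen after seeing the data and are given as counts.

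H3K4me3 was near or under input over the receptors. In control cells 3 of 180 tested receptors were called higher than input, 1.67%, against 67.3% of all windows, and 58 (32.2%) were called lower, against 9.74%. The lower count fell to 28 and 13 without H3K4me3 control replicate 1 or 2, to 40 without input control replicate 1, to 26 with limma's voom and to 0 after quantile normalization (34 unadjusted). Median centring left 1 higher and 178 lower, and moved the split over all windows from 15745 higher and 2280 lower to 8161 and 10080. The summed receptor windows stood at 0.744-fold of input, and at 0.519-fold without Vmn1r4.

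**Figure D4:**
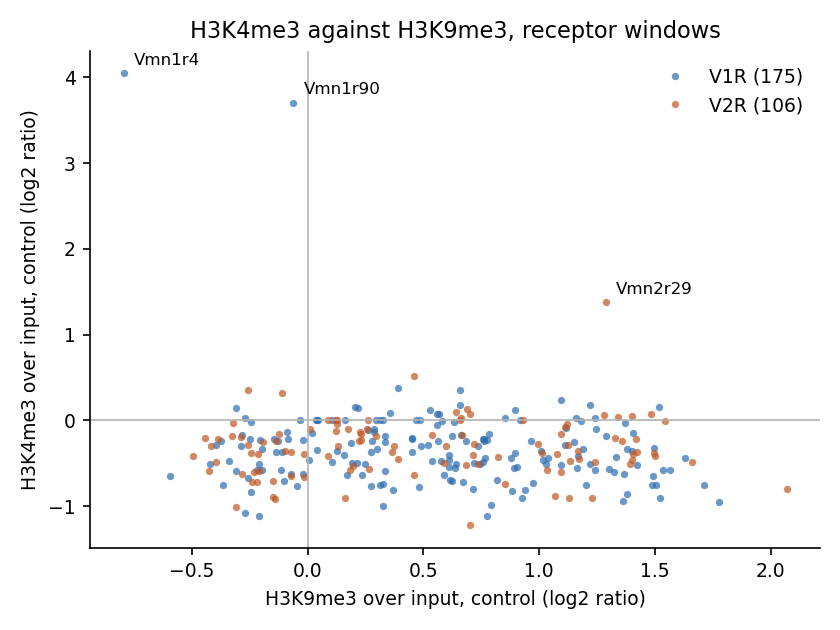
Log2 ratio of H3K4me3 to input (y axis) against that of H3K9me3 to input (x axis) in control for 175 V1Rs and 106 V2Rs with reads, 0.5 RPM added. Vmn1r4, Vmn1r90 and Vmn2r29 stand above the rest in H3K4me3, and Vmn2r29 alone of these also lies to the right.

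The 3 exceptions were Vmn1r4, Vmn1r90 and Vmn2r29. Vmn1r4 had 191 and 426 H3K4me3 reads in control and 67 and 354 in knockout, or 18.4, 23.6, 17.5 and 21.4 RPM, and 9 and 11 input reads in control. All 4 libraries stood far above input, and control and knockout overlapped. The log2 difference from input was 4.05 (SE 0.24, limma adjusted p = 9.91e-65). The deposited tables start this gene at 56924022 on chromosome 6, plus strand. That is 90 bases from the start of Nt5c3, a nucleotidase gene transcribed the other way (56882400 to 56923932), whose window had 183, 432, 71 and 367 H3K4me3 reads. RefSeq starts Vmn1r4 at 56956513, 32491 bases further on, so the deposited start lies beside Nt5c3 and not at the start in RefSeq. Vmn1r4 made up 24.9% and 36.3% of all receptor H3K4me3 reads in control and 21.9% and 27% in knockout.

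Vmn1r90 also had a deposited start far from that of RefSeq. It had 78 and 158 H3K4me3 reads in control and 26 and 126 in knockout, against 2 and 2 in the control inputs. Its log2 difference from input was 3.71 (SE 0.33, limma adjusted p = 1.59e-29). The deposited start at 14623066 on chromosome 7, minus strand, lies 60895 bases from that of RefSeq, in a gene drawn over 92413 bases, where a median V1R covers 945. Whether the H3K4me3 there belongs to the start of another gene was not tested. Vmn2r29 had 27 and 46 H3K4me3 reads in control and 7 and 33 in knockout, with a log2 difference from input of 1.38 (SE 0.35, limma adjusted p = 9.6e-05). It also had H3K9me3, with 81 and 94 reads against 32 and 20 in its inputs (log2 difference 1.97, SE 0.30, limma adjusted p = 0.00141). Whether both marks lie on the same chromosomes was not tested. Unlike the other 2 exceptions, Vmn2r29 had a deposited start 0 bases from that of RefSeq. Its RefSeq window held 23 CG, the most among the 268 receptors matched at the same start, whose median was 1. No V1R among them held more than 6. The share of G and C in the Vmn2r29 window was 62.3%, against a median of 36.7% in receptors. Whether this sequence is related to the H3K4me3 of Vmn2r29 was not tested. In all, 20 of the 288 receptors matched by symbol lay over 100 bases from the RefSeq start, the farthest being Vmn2r7 at 125163 bases.

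H3K27me3 was near input over the family, with a summed ratio of 1.21-fold in control. The same ratio was 1.56-fold over all windows and 1.19-fold over olfactory receptors. Of 214 tested receptors 9 were called higher (4.21%), against 13.8% of all windows, and 1, Vmn1r199, was called lower (5% of all windows). Those higher were Vmn1r65, Vmn2r104, Vmn2r60, Vmn1r63, Vmn2r65, Vmn1r68, Vmn1r60, Vmn1r56 and Vmn1r181. Vmn1r65 led, with 34 and 28 H3K27me3 reads in control against 4 and 5 in input and a log2 difference of 1.78 (SE 0.39, limma adjusted p = 7.81e-05). It was also among the highest in H3K9me3, with 80 and 101 reads against 18 and 18. Vmn2r104 had 18 and 20 reads against 1 and 3 (log2 difference 1.63, SE 0.36, limma adjusted p = 7.36e-05). Of the 9, Vmn1r65, Vmn1r63, Vmn1r60 and Vmn1r56 lie in the Vmn1r55 to Vmn1r65 cluster. Its windows summed to 8.69 and 8.70 RPM of H3K27me3 against 2.55 and 2.99 RPM of input, 3.14-fold. In knockout that cluster summed to 7.56 and 4.74 RPM, with inputs of 3.04 and 3.09 RPM. Among the 16 clusters of at least 4 receptors its ratio in control was the highest. Vmn2r57 to Vmn2r63 came next at 2.40-fold, and Vmn1r4 to Vmn1r31 was lowest at 0.848-fold. The clusters were ranked after their values were seen, and the ranking carries no test. Leaving out input control replicate 1 or 2 left 0 calls in either direction over all 23979 windows, receptors included (12 and 13 receptors higher at an unadjusted p under 0.05), while the receptors' median log2 difference was 0.08 and 0.05, against 0.08 with both inputs. The 9 higher calls moved to 16 after median centring and to 3 with limma's voom on whole reads.

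No receptor passed the test for a change of H3K4me3 or H3K27me3 in the Kmt2b knockout, and few had enough reads to be tested. For H3K4me3, limma over windows that averaged 1 RPM or more tested 3 receptors and called 0 (0 also at an unadjusted p under 0.05 and 0 with voom), against 9.9% of 15624 windows lower and 0.0512% higher. After median centring 642 of all windows were higher and 1430 lower, and still 0 receptors. The log2 changes of the 3 were -0.11 (SE 0.29, limma adjusted p = 0.896) for Vmn1r4, -0.18 (SE 0.46, 0.898) for Vmn1r90 and -0.43 (SE 0.68, 0.805) for Vmn2r29. Median centring turned Vmn1r4 to 0.18 and Vmn1r90 to 0.11. Nt5c3 beside Vmn1r4 changed by -0.02 (SE 0.28, limma adjusted p = 0.982). The summed windows, most of them at the level of input, stood at 74.0 and 65.2 RPM in control and 79.9 and 79.0 RPM in knockout, without overlap (0.19 on the log2 scale, exact two-sided permutation p = 0.33, the smallest possible). Without Vmn1r4 the libraries stood at 55.6 and 41.5 against 62.4 and 57.7 RPM. Receptor reads were few in knockout replicate 1, 306 in all. With the filter lowered to 0.2 RPM, 1 of 126 receptors was called higher, Vmn1r229, against 0.193% of all windows, with 0 and 1 reads in control and 6 and 5 in knockout. Both control libraries lay under 0.2 RPM there, so Vmn1r229 passed this filter only through the knockout libraries in which it was high. Of the 126 receptors, 94 (74.6%) were higher in direction, against 38.8% of all windows. The part of depth and of the filter in this was not tested.

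H3K27me3 summed to 112 and 114 RPM in control and to 112 and 103 RPM in knockout (-0.07 on the log2 scale, exact two-sided permutation p = 0.667), with overlap. Of 6 receptors tested 0 were called by limma (0 at an unadjusted p under 0.05 and 0 with voom), against 0.791% of 4807 windows higher and 0% lower. Median centring gave 81 windows higher and 202 lower and no receptor. The 6 were Vmn1r65, Vmn1r67, Vmn1r82, Vmn2r60, Vmn2r74 and Vmn2r104, with log2 changes from -1.03 (Vmn1r82, SE 0.69) to 0.59 (Vmn2r74, SE 0.57). The input sums were 95.6 and 91.1 RPM in control and 94.6 and 90.7 RPM in knockout (-0.01 on the log2 scale, exact two-sided permutation p = 0.667). H3K9me3 in knockout cells was not analysed here.

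Receptor RNA was scarce. No read was found in any of the 4 RNA libraries for 194 of 317 receptors (61.2%), against 15% of all 25067 genes, and 6 receptors averaged 1 RPM or more. V2Rs had a read more often than V1Rs, 94 of 116 against 29 of 201. The median V2R covers 24286 bases in the tables, introns included, and the median V1R 945. Divided by that span, the median V2R had 0.00185 RPM per kilobase and the median V1R 0. All receptors together summed to 45.4 and 43.8 RPM in control and to 46.1 and 46.8 RPM in knockout, without overlap, a difference of 0.06 on the log2 scale (exact two-sided permutation p = 0.33, the smallest possible). Scaling by the median gene turned it to -0.08. In a bulk culture fewer cells of a type and less RNA per cell cannot be told apart. Feeder markers summed to 429 and 457 RPM in control and 465 and 600 RPM in knockout, with Fap lowest, blood markers to 3.51 and 3.88 against 4.48 and 4.60 RPM with Ptprc at 0 in control, and Sertoli and Leydig markers to 18.0 and 16.5 against 17.2 and 21.8 RPM with Cyp17a1 at 0. Their part in receptor RNA was not tested.

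Vmn1r4 gave 36.7% to 46.4% of all receptor RNA per library, with 723 and 839 reads in control and 979 and 687 in knockout (18.8, 18.9, 21.4 and 17.2 RPM). The groups overlapped (log2 change 0.02, SE 0.13, limma adjusted p = 0.945). Its RNA span begins at the same divergent start beside Nt5c3. The other 5 were lower. Vmn2r59 had 282, 264, 248 and 300 reads in the 2 control and 2 knockout libraries in that order. Vmn1r90 had 72, 106, 95 and 87 reads, and Vmn2r29 77, 57, 67 and 63. Vmn2r35 had 91, 110, 109 and 91 RNA reads and no read in any of the 16 chromatin libraries, so nothing is known here of its marks. The start of Vmn2r35 shared 68.1% of its stretches of 50 bases with another receptor and that of Vmn2r59 shared 0%. Reads of near-identical receptors can be split or lost in counting, so the level of Vmn2r35 is uncertain.

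**Figure D5:**
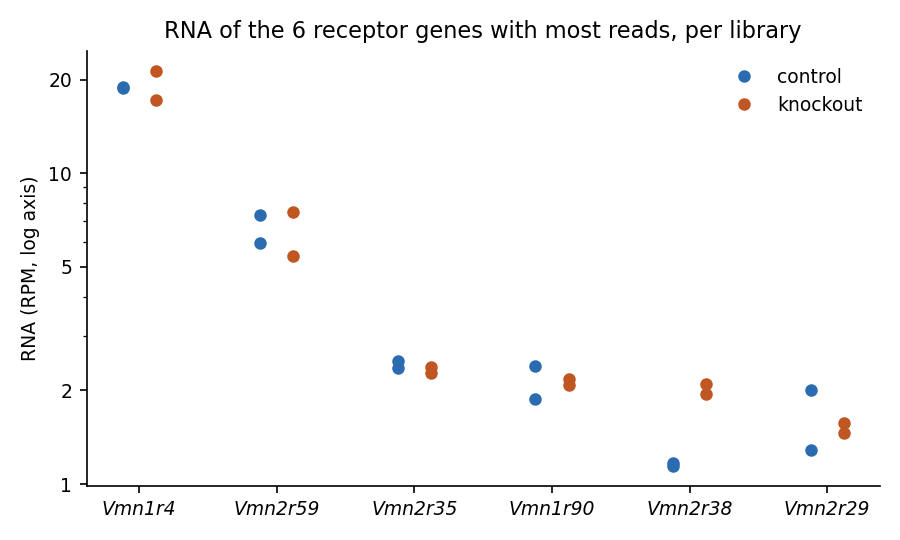
RNA in RPM (y axis, logarithmic) of the 6 receptor genes averaging 1 RPM or more, in 2 control and 2 knockout libraries each. Vmn1r4 lies between 17.2 and 21.4 RPM, and the ranges of control and knockout overlap for all but Vmn2r38.

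Of these 6 receptors limma called 0 in the knockout (1 at an unadjusted p under 0.05 and 0 with voom), against 3.01% of 14100 genes higher and 0.312% lower (425 and 44 genes, or 266 and 114 after median centring). Vmn2r38 had 44 and 52 reads in control and 89 and 84 in knockout, the knockout libraries both higher. The log2 change was 0.80 (SE 0.21, unadjusted p = 0.00604, limma adjusted p = 0.0919). Without RNA knockout replicate 1 it passed the threshold (0.86, limma adjusted p = 0.00583), in a fit that called 5257 genes higher and 1442 lower. Without knockout replicate 2 it passed too (0.75, limma adjusted p = 0.02), with 2953 genes higher and 3095 lower. Without control replicate 1 or 2 it did not pass (limma adjusted p = 0.482 and 0.36). With no filter, 1 of 317 receptors was called higher, Vmn2r31, against 0.838% of all genes, with 0 and 1 reads in control and 4 and 4 in knockout. The RefSeq window at its start is identical to that of Vmn2r33, so the level of Vmn2r31 is uncertain too.

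Other genes of the pathway were measured alongside. Of 18 genes of vomeronasal signalling, Trpc2 had 47.0 ± 0.82 RPM of RNA in control and 49.2 ± 1.83 in knockout (SD, n = 2 each), Gnai2 103 ± 1.95 and 109 ± 4.90, and Gnao1 11.3 ± 0.94 and 12.1 ± 2.27. These genes are also used in other cells. Of the 18 windows, 7 were called higher than input in H3K4me3, against 67.3% of all windows. In H3K9me3, 0 were called higher (limma, 0 unadjusted; Trpc2 at -3.06, SE 0.56) and 12 lower, against 6.09% and 82.5% of all windows. In the knockout 0 of 7 tested were called in H3K4me3 (1 unadjusted) and 0 of 8 in RNA (0 unadjusted), with median log2 changes of -0.26 and 0.07 against -0.26 and 0.06 over all windows and genes. The H2-M genes H2-M10.1 to H2-M10.6, class I molecules that some V2R neurons express, had no RNA read in control. Of 7 transcription factors of vomeronasal neurons, 3 had less H3K4me3 in the knockout, against 9.9% of all windows tested. They were Neurog1 (log2 change -1.86, SE 0.48, limma adjusted p = 0.00863), Neurod1 and Tfap2e. Meis2 and Lhx2 had more RNA, by 1.42 (SE 0.25, limma adjusted p = 0.0352) and 1.19 (SE 0.20, 0.032). They were 2 of 4 of the list tested, against 3.01% of all genes tested. Among 7 formyl peptide receptors, chemoreceptors that include vomeronasal ones, Fpr-rs3 was called higher than input in H3K9me3 (2.77, SE 0.32, limma adjusted p = 0.000599) and 1 was called lower. All 13 genes of H3K9 methylation in the RNA table were above 1 RPM in control, among them the methyltransferase Setdb1 (163 ± 3.05 RPM) and its partner Trim28 (486 ± 7.36 RPM, SD, n = 2 each). Limma called 0 of these 13 in the knockout in H3K4me3 and 0 in RNA (0 unadjusted in both).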

How the data were processed

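H3K4me3, H3K27me3, H3K9me3, input and RNA were measured in 20 libraries, 2 per group. The authors deposited log2 RPM, per the file headers, for 1 window per gene and for RNA per gene (build mm10). The submitters' processing notes name TopHat2 2.0.14, Bowtie 1.1.1, Trim Galore 0.4.0 and CASAVA 1.8. Window size, place, strand setting and multi-mapping are not given in the sources used here. Values were whole multiples of a step within 0.1 read (100%), which gave reads and mapped reads; the lowest value, 0.9 of a step, is no read. Tests used limma 3.58.1 under R 4.3.3, with its variance trend, on values as deposited, or log2(RPM + 0.5) for H3K4me3 and H3K27me3 over input, and were checked on simulated data. Filters were a mean of 1 RPM (knockout, chromatin), 0.2 RPM (over input) and log2 RPM of 0 (RNA). Named receptors were the 8 highest and 4 lowest in H3K9me3 over input (inputs of at least 0.2 RPM), the 5 highest in H3K4me3 and in H3K27me3, the 6 highest in RNA and up to 10 called per comparison. The members, lists and named rule were chosen with earlier results of these data known. One gene of the transcription factor list is not reported here. Promoter sequences came from RefSeq (GRCm38.p6). Alternatives were other filters, scalings, pseudocounts, limma voom, a replicate block and leaving out each library.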

Additional observations from a re-analysis of the deposited data

How the results depend on the processing

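The summed H3K9me3 ratio stayed above 0 under every alternative run (log2 1.31 to 3.81, median scaling highest). Receptors called higher in H3K9me3 numbered 93 at a minimum of 0.5 RPM, where 114 were tested, and 126 to 165 with 1 library left out. H3K4me3 over input gave 1 call after median centring and 0 after quantile normalization in place of 3. H3K27me3 over input gave 16, 0 and 3 calls in place of 9 with median centring, quantile normalization and voom, and 0 to 9 with 1 library left out. H3K4me3 in the knockout gave 1 call at 0.2 RPM and 1 with no filter, RNA 1 with no filter and 0 to 1 with 1 library left out. Median scaling turned the summed input change to 0.037 and the RNA change to -0.080, and leaving out 1 library moved the input change between -0.045 and 0.024. The causes were not tested.

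With median centring and with quantile normalization, the log2 differences became 0.76 and 0.68 for Vmn2r107 and 0.42 and 0.88 for Vmn2r57 in H3K9me3, 0.18 and 0.016 for Vmn1r4 and 0.11 and 0.75 for Vmn1r90 in H3K4me3 in the knockout, and -0.074 and -0.085 for Vmn1r4 in RNA. Quantile normalization gave 0.93 for Vmn2r29 in H3K4me3. With 1 library left out, Vmn1r4 ran from -0.289 to 0.068 in H3K4me3 (0.033 without knockout replicate 1) and from -0.136 (without knockout replicate 1) to 0.182 in RNA. Quantile normalization also ended the H3K9me3 call of Vmn2r74 (2.75, limma adjusted p = 0.191).

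The replicate numbers are not tied to lines in the labels. Same-numbered deviations correlated at 0.149 in H3K4me3, 0.0617 in H3K27me3 and 0.0909 in RNA, over 2 pairs. The replicate block left 3 and 9 calls over input and 0 in the knockout for both marks, and gave 1 in RNA in place of 0, Vmn2r38 (0.80, limma adjusted p = 0.0314). It left the summed changes at 0.19, -0.071, -0.010 and 0.059. H3K9me3 and its inputs share no numbers. Depth limits H3K4me3 most, with a median of 0 to 2 reads per receptor.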
